A study of Mus musculus with 4 samples.

Results

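Malat1 and Neat1 are neighbouring long noncoding RNA genes on mouse chromosome 19 whose transcripts stay in the nucleus. Their loci were taken as every locus of the transcript models that overlaps mm9 chr19:5795000-5803000 (Malat1) or chr19:5824000-5846000 (Neat1), on either strand. This gave 4 of the 35299 loci in the count table, 1 in the Malat1 window and 3 in the Neat1 window. The gene names rest on these positions, because the models carry UCSC identifiers and no symbols. The 4 libraries form 1 group, Sham: C57BL/6J mice of 12 weeks that had a sham operation, with heart tissue collected 2 weeks later where an infarct's border would lie. The RNA was poly(A)-selected and read from both ends. The free-text description of replicate 4 lacks the word sham, while its other labels have it. The table's columns, 3RL, 7LR, 8R and 12RL, are in no label and cannot be tied to replicate numbers. No second group exists, so the levels, how they differ between libraries, and the transcript models are described. The tissue was not checked against marker genes, because loci have no symbols.

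Malat1 RNA gathers in nuclear speckles, domains rich in splicing factors. Neat1 RNA is the scaffold of paraspeckles, nuclear bodies that form around its long form, while its short form shares the same 5′ end and carries a poly(A) tail. Malat1 and long Neat1 get their 3′ end from cleavage by RNase P instead of cleavage and polyadenylation. That end is held in a triple helix of U-rich stretches and an A-rich tract encoded in the gene, and the piece cut from Malat1 becomes the small tRNA-like RNA mascRNA. The libraries were selected for poly(A), so the 3′ ends are shown first. How well each form was captured was not measured.

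The sequences come from the GENCODE M21 transcripts (GRCm38, minus strand of chromosome 19), with T for U, 5′ to 3′. Capitals in the first 2 mark AAAAGCAAAA, the last 10 bases of Neat1-201, and its reverse complement TTTTGCTTTT, and capitals in the third mark the polyadenylation signal AATAAA. Motifs were searched on the transcript strand, and they do not overlap.
Malat1-201, bases 6582 to 6711: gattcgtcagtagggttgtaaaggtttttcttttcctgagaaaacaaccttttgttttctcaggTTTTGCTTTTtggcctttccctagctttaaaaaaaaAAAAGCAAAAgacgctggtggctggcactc
Neat1-201, bases 20672 to 20771: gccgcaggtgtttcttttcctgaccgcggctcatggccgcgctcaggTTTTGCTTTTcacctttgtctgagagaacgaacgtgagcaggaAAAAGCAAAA
Neat1-202, bases 2945 to 3004: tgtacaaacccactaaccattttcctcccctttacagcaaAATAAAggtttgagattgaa

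The 2 long transcripts share both stretches. In Neat1-201 the A-rich tract is the last 10 bases of the annotated transcript, and in Malat1-201 another 292 bases follow it. Of 134529 GENCODE transcripts with at least 200 bases, 207 (0.154%) hold TTTTGCTTTT and 238 (0.177%) hold AAAAGCAAAA in their last 200 bases. Only 1 of them, Neat1-201, holds both there, since the pair in Malat1-201 lies further from its annotated end. The A-rich tract was taken from the end of Neat1-201, so its match in that transcript was set in advance. AATAAA ends 14 bases before the end of the short Neat1-202 and 16 bases before the annotated end of Malat1-201, and 28.5% of those transcripts hold it in their last 60 bases. A match is a description of letters and was not tested as a site.

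The Malat1 locus lay on the minus strand at mm9 chr19:5794530-5802671 and had 5 models, 1 from UCSC and 4 assembled from reads. All 5 began at the same 5′ base. The UCSC model was a single exon of 4277 bases, so it held the upstream part only. Each assembled model ran over the whole span of 8142 bases, which is 1159 bases more than the RefSeq length of Malat1 on GRCm38.p6, 6983 bases. The assembled models had 2 to 4 exons and spliced lengths of 7441 to 8044 bases. Their gaps were short, from 84 to 603 bases, and all 4 models had at least 1 gap between positions 5797721 and 5798035. GENCODE's full-length Malat1-201 is a single exon of 6983 bases.

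The Neat1 row of the table was not Neat1 alone. Its minus-strand locus spanned mm9 chr19:5824566-5875208, or 50643 bases, with 10 models. A UCSC model of 2 exons, 552 and 2452 bases with an intron of 166 bases, had the same exon lengths as GENCODE's short Neat1-202, 3004 bases in all. From its 5′ end at position 5845476 to the 3′ end of the locus were 20911 bases, 138 more than the RefSeq length of Neat1, 20773 bases. Another 4 models lay wholly upstream of that 5′ end, and 2 assembled models of 12 and 13 exons joined both parts. In the RefSeq order on GRCm38.p6 the gene that follows Neat1 is Frmd8, which encodes a FERM-domain protein that binds iRhom proteins. The files pair these upstream models with no symbol. Of the 29505 exon bases of the row, 20745 (70.3%) lay up to the Neat1 5′ end and 8760 beyond it. The row gives 1 value for both parts.

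**Figure D1:**
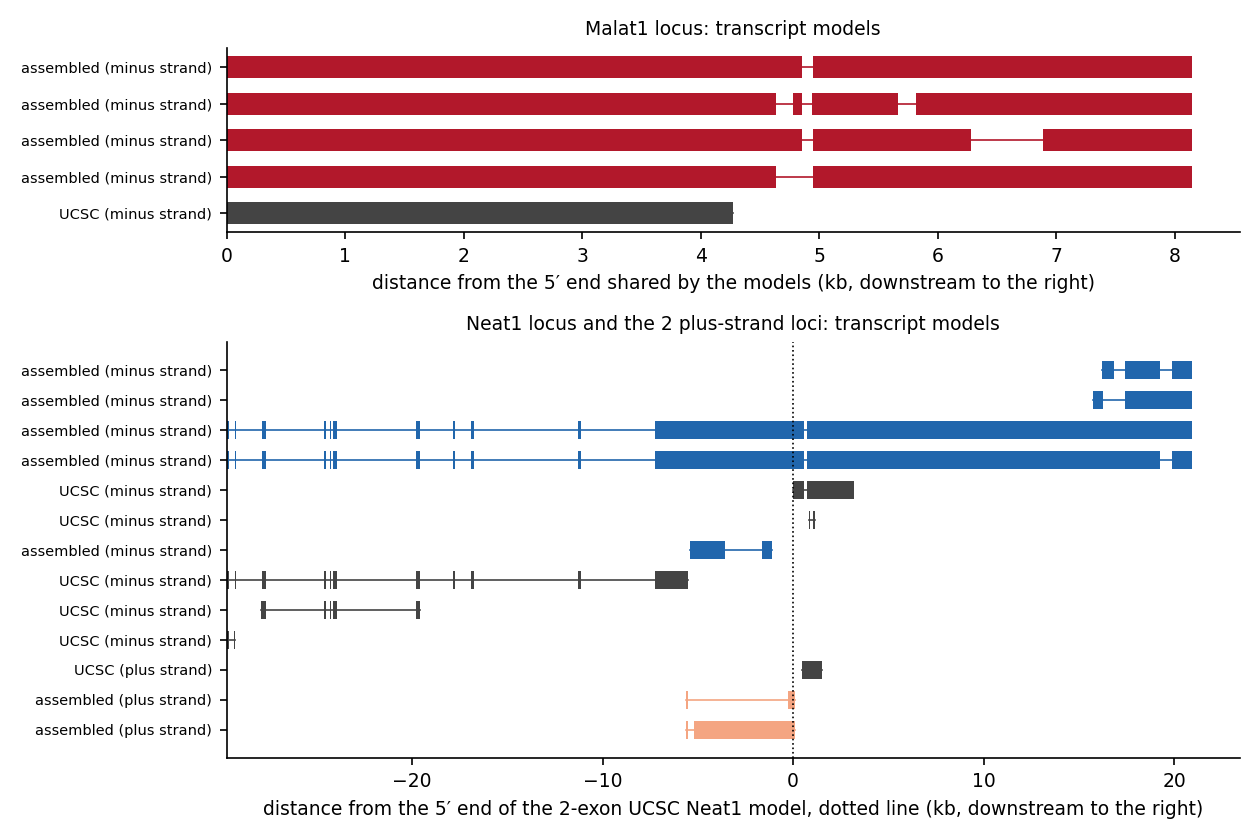
Transcript models of the Malat1 locus (top) and of the 3 loci in the Neat1 window (bottom), with exons as boxes and introns as lines, against distance in kilobases along the minus strand. The 4 assembled Malat1 models share both ends, and 2 assembled Neat1 models continue upstream of the dotted line, the Neat1 5′ end, into the exons of the next UCSC models.

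The other 2 loci lay on the plus strand, opposite Neat1. A UCSC model of 1 exon stood at mm9 chr19:5843983-5845008, within the span of the short Neat1 model and downstream of its 5′ end at position 5845476. Of its 1026 bases, 860 were also exon of the Neat1 locus, and the 166 that were not are exactly the intron of the short Neat1 model, positions 5844759 to 5844924. An assembled locus of 2 models at mm9 chr19:5845377-5851090 was covered over all its 5414 exon bases. It was listed at 0 in all 4 libraries, although its models had been assembled. The same held throughout the table: all 339 loci wholly under exons of the other strand were at 0 in every library (100%). Of all 35299 loci 7707 (21.8%) were at 0, and of the 29111 free of every other locus 7099 (24.4%). The 339 included 203 assembled loci with no UCSC model. Of the other 9018 assembled loci, 174 (1.93%) were at 0. How reads on shared bases were counted is not given in the sources used here, nor is the strandedness, so reads of a gene and its antisense partner cannot be told apart. In the Neat1 row 6274 exon bases lay under plus-strand exons, 960 of them in the Neat1 part, and its value may lack their reads.

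Malat1 was among the most abundant RNAs of these hearts by read count. Its normalised read counts, the authors' counts divided by 1 size factor per library, were 113212 in 3RL, 135550 in 8R, 197124 in 12RL and 202513 in 7LR. Libraries 7LR and 12RL were high and close together, 8R was lower and 3RL the lowest of the 4. The mean was 162099.8 ± 44553 (SD, n = 4), from 94843 to 177829 whole reads. Malat1 had rank 81 of the 27592 loci above 0, with 99.7% of them lower, and rank 2 of 919 on chromosome 19. It took 0.0955% ± 0.0288 of all counts and 0.137% ± 0.0392 of those outside the mitochondrial chromosome. In bulk tissue, fewer cells with the RNA and less RNA per cell cannot be told apart.

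The Neat1 row was lower in count than Malat1 in each of the 4 libraries. It had 71327 normalised read counts in 3RL, 78985 in 8R, 85809 in 12RL and 88673 in 7LR, with a mean of 81199 ± 7735 (SD, n = 4). The libraries stood in the same order as for Malat1, over a narrower range, and 4.33% of the 14424 loci whose mean reached 50 had this order. The row had rank 186 of the loci above 0 and rank 11 on chromosome 19. The ratio of Malat1 to Neat1 counts was 1.59 in 3RL, 1.72 in 8R, 2.28 in 7LR and 2.30 in 12RL, or 1.97 ± 0.373 on average (SD, n = 4).

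**Figure D2:**
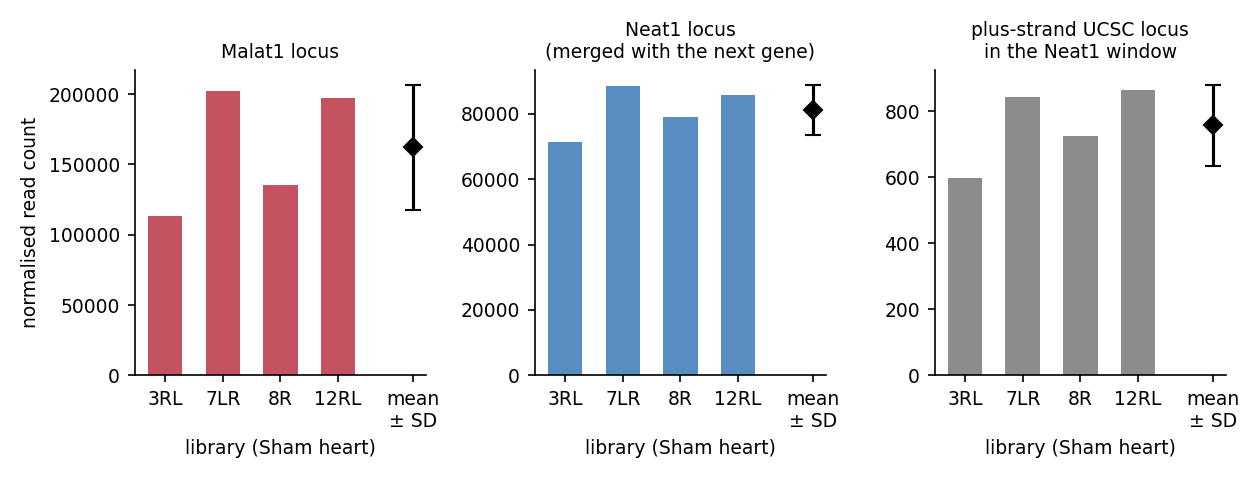
Normalised read counts of the Malat1 locus, the Neat1 locus and the plus-strand UCSC locus in each Sham library (bars), with the mean and SD over the 4 libraries (diamond and whiskers). In all 3 panels 7LR and 12RL are the 2 highest and 3RL the lowest, and the Malat1 bars differ most, from 113212 to 202513.

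Per length the 2 genes lay further apart, but the order rests on where the Neat1 reads fall. Over all exon bases, Malat1 had 20117 ± 5529 normalised reads per kilobase and the Neat1 row 2752 ± 262 (SD, n = 4). By library the Malat1 level was 14049.7 in 3RL, 16822 in 8R, 24463 in 12RL and 25132 in 7LR, and that of the Neat1 row was 2417, 2677, 2908 and 3005 in the same libraries. The log2 ratio of Malat1 to Neat1 was 2.83 ± 0.28, higher for Malat1 in 4 of 4 libraries (two-sided exact test over all sign flips, p = 0.125, the lowest value that n = 4 permits). Had all reads of the row come from the exons up to the Neat1 5′ end, Neat1 would be at 3914 ± 373 reads per kilobase and the log2 ratio at 2.32. Had they all come from the short 2-exon model, Neat1 would be at 27030.2 ± 2575 and the log2 ratio at -0.46, lower for Malat1 in 4 of 4 libraries. Over the 2044 bases of the short model outside exons of other loci, the same reads would give 39725 ± 3784 and a log2 ratio of -1.02, again lower for Malat1 in 4 of 4 libraries. The table cannot tell the long form, the short form and the upstream gene apart, so these are placements of 1 value and no measure of the forms. By reads per kilobase over all exon bases, Malat1 had rank 212 of the loci above 0 and the Neat1 row rank 1698.

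**Figure D3:**
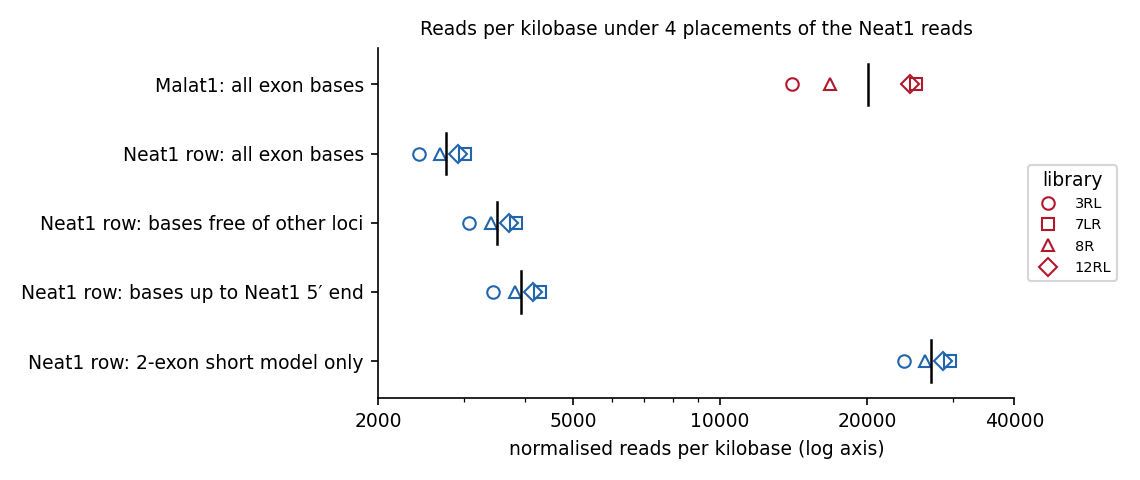
Normalised reads per kilobase (log axis) of Malat1 and of the Neat1 row under 4 placements of its reads, 1 symbol per library and a vertical line at the mean. Malat1 lies to the right of the first 3 placements in every library, and the short-model placement lies at a mean of 27030.2, above the Malat1 mean of 20117.

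Reads were also assigned to the plus-strand UCSC locus, far fewer than to the Neat1 row. It had 597 normalised read counts in 3RL, 725 in 8R, 843 in 7LR and 864 in 12RL, with a mean of 757 ± 123 (SD, n = 4), above 64.6% of the loci above 0. Libraries 12RL and 7LR were again the highest and 3RL the lowest. Divided by the 166 bases outside exons of the Neat1 row, this is 4562 ± 742 reads per kilobase, against 3495 ± 333 for the Neat1 row over its own 23231 bases outside exons of other loci. The plus-strand locus was higher by this measure in each library, at 3595 against 3070 for the Neat1 row in 3RL and 5077 against 3817 in 7LR. In 8R it was at 4369 against 3400 for the Neat1 row, and in 12RL at 5205 against 3694. This order depends on where the row's reads fall. Placed only on such bases up to the Neat1 5′ end, they would give 3605 in 3RL, above the plus-strand locus. The same placement would give 4482 in 7LR, 3992 in 8R and 4337 in 12RL, below that locus. Placed on the 2044 such bases of the short model, they would give 34896 to 43382, above that locus in every library. Reads that cross the borders of so short a stretch were not corrected for. These 166 bases are also the intron of the short Neat1 model, whereas GENCODE's long Neat1-201 is a single exon of 20771 bases and has no intron. Reads of long Neat1, of the unspliced short form and of a plus-strand RNA cannot be told apart here.

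Malat1 varied more between these hearts than most loci of like level. Its log2 values, taken as log2(value + 1), had an SD of 0.41 and the highest library was 1.79 times the lowest. Among the 155 other loci with a mean within a factor of 2, the median SD was 0.12, and 5 had a larger SD than Malat1. The CV of Malat1 was 27.5%. Without library 3RL the SD was 0.32 and 10 of 125 such loci were larger, and over the 4 omissions of 1 library Malat1 stood above 92.0% to 98.2% of loci of like level.

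The Neat1 row varied as most loci of its level did. Its log2 SD was 0.14 and its CV 9.53%, with the highest library 1.24 times the lowest. The median SD of the 316 other loci of like level was 0.13, and 138 had a larger SD. The low value of 3RL carried much of this spread: without 3RL the SD was 0.086 and 229 of 305 loci were larger, and without 8R it was 0.17 and 45 of 309 were larger. By Dixon's ratio, a test of 1 extreme value among 4 at the 95% level, no library stood apart at Malat1, Neat1 or the plus-strand locus. It was passed at 4.6% of the 14424 loci whose mean reached 50.

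**Figure D4:**
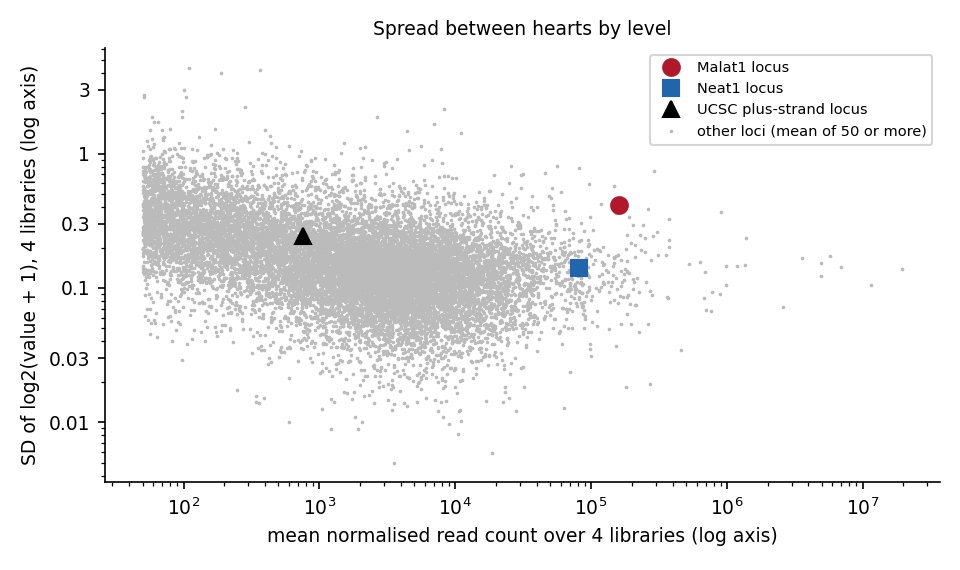
SD of log2(value + 1) over the 4 Sham libraries against the mean normalised read count (both axes logarithmic) for the 3 loci with reads and all other loci whose mean reached 50. Malat1, at an SD of 0.41, lies near the upper edge of loci of its level, and the Neat1 locus, at 0.14, lies within them.

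Both loci were also set beside loci whose longest spliced model was within a factor of 1.5 of their own. Deviations are log2 values of a library minus the mean over the 4. Malat1 deviated by -0.47 in 3RL and -0.21 in 8R, and by 0.36 in 7LR and 0.33 in 12RL. The medians of 4256 loci of like length had the same signs but were small, at -0.03, -0.03, 0.04 and 0.02 in these libraries. Malat1 stood above 2.68% of them in 3RL, 15.98% in 8R, 94.9% in 7LR and 95.5% in 12RL. After the medians were subtracted, its range between libraries was 0.78, against 0.84 before, and it was 0.51 without 3RL. The range of 0.84 was above that of 91.0% of these loci, with 381 larger and a median of 0.32.

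The Neat1 row deviated much as loci of the length of its longest model did. That model, of 29408 spliced bases, joins Neat1 to the upstream exons. Loci near the 3004 bases of the short model were not set beside the row. Its deviation was -0.18 in 3RL, -0.03 in 8R, 0.08 in 12RL and 0.13 in 7LR, while 75 loci of like length had medians of -0.12, -0.09, 0.11 and 0.10. The range of the row was 0.31 before and 0.12 after these medians were subtracted. Libraries 7LR and 12RL were the 2 highest at all 3 loci with reads, Malat1, Neat1 and the plus-strand locus. This pattern and the full order were picked after the values were seen, and the pattern held at 19.1% of the 14424 loci. Its share was 43.4% among 2240 loci with a longest model of 8000 bases or more and 8.88% among 563 of up to 1000 bases. The reads counted over all loci were 142524825 in 7LR, 108345923 in 12RL, 160670654 in 8R and 140554089 in 3RL. What part length, depth or RNA quality had in the pattern was not tested.

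**Figure D5:**
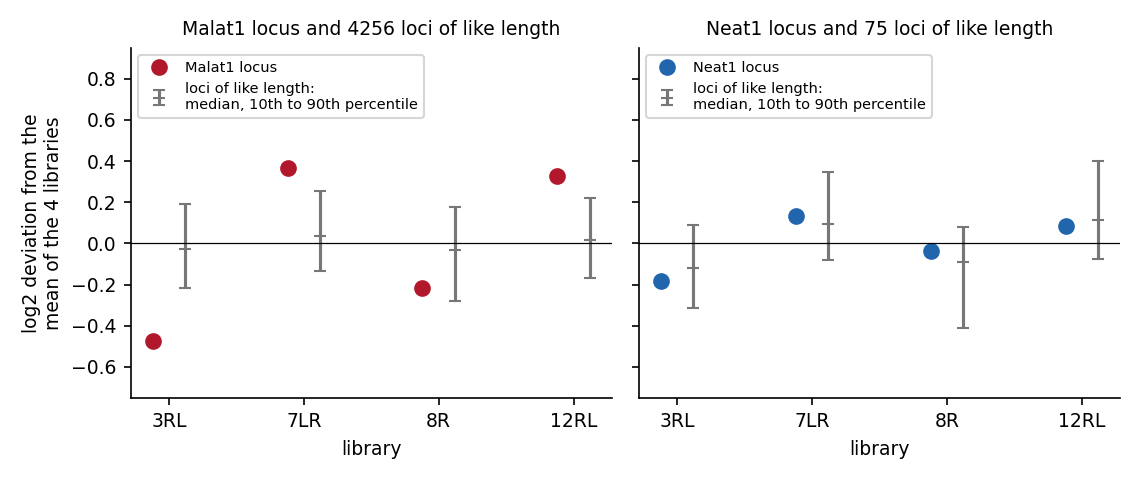
Deviation (log2) of single libraries from their mean for the Malat1 locus (left) and the Neat1 locus (right), beside the median and 10th to 90th percentile of loci of like spliced length. Malat1 lies outside the 10th to 90th percentile in 3RL, 7LR and 12RL, and Neat1 lies inside it in all 4 libraries.

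Within 100 kb of the 2 windows, 9 further loci had a mean of 10 or more. At 0 of these 9 were 7LR and 12RL the 2 highest libraries, a pattern that 19.1% of the 14424 loci whose mean reached 50 had. So small a count shows no difference from Malat1 and Neat1. Their means ran from 57.4 to 54376 normalised read counts, so Malat1 was 2.98 times and the Neat1 row 1.49 times the highest of them, the minus-strand locus at mm9 chr19:5707035-5726440. That locus had 51783 in 7LR, 53316 in 3RL, 55985 in 8R and 56420 in 12RL, with a log2 SD of 0.06. By reads per kilobase over all exon bases it was at 7876, below Malat1 at 20117 and above the Neat1 row at 2752. Placed up to the Neat1 5′ end, the reads of the row would give 3914, and on the short model 27030.2. The log2 SD of the 9 loci was between 0.04 and 0.26. The 21894 bases between the Malat1 and Neat1 loci held 2 single-exon assembled loci, with means of 9.70 and 3.29, so the 2 genes were separate in the assembly.

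Loci with the profile most like the 2 genes were sought among 9120 loci whose mean reached 1000, by the Euclidean distance between centred log2 values over the 4 libraries. Nearest to Malat1 was the locus at mm9 chr15:85564518-85637439, at a distance of 0.08, with 5239 normalised read counts in 3RL, 5948 in 8R, 8685 in 7LR and 8905 in 12RL. It was followed by chr2:45094724-45403283 at 0.12, chr8:86424614-86463993 at 0.14, chr9:88214097-88271153 at 0.15 and chr5:36359830-36740788 at 0.18. The 5 had longest models of 5721 to 11649 bases. Nearest to the Neat1 row was chr18:36440816-36461801 at 0.01, with 7156 in 3RL, 7942 in 8R, 8632 in 12RL and 8808 in 7LR. The next 4 were chr16:14361653-14481886, chr16:36963309-36991620, chr11:60591027-60602498 and chr1:54702184-54983202, all at 0.03. Malat1 and Neat1 were 0.48 apart, so that 508 of the 9120 loci were nearer to Malat1 than Neat1 was, and 7312 were nearer to Neat1 than Malat1 was. The median distance of these loci was 0.79 to Malat1 and 0.35 to Neat1. With 4 libraries many loci share a profile, and the distance says nothing of function.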

How the data were processed

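The authors deposited a table of signal values, read counts per locus divided by 1 size factor per library, and transcript models on mm9 whose exon coordinates are 1-based. DESeq, HTSeq 0.5.4p2, Cufflinks 2.0.2 and TopHat2 2.0.5 are the tools and mm9 the build listed in the submitters' processing notes. Neither counting mode nor strandedness is given in the sources used here. All values (100%) were whole multiples of 1 step per library within 0.001, so whole reads were recovered, from 108345923 to 160670654 per library.

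Lengths are the union of a locus's exons. Values were taken as log2(value + 1), which understates differences of low loci. Nothing was filtered from the members. Loci compared with had a mean of 50 or more, or of 1000 or more for likeness. With 1 group there is no contrast; the Malat1 to Neat1 ratio was tested by an exact sign-flip test. Every locus in the windows is named, and neighbours and the 5 most alike loci by position. Labels call the samples biological replicates without naming the animals, so the spread may hold technical parts. The lists of paraspeckle, speckle, noncoding RNA and marker symbols set in the design were not used, because no source pairs mm9 loci with symbols. Members, lists and tests were chosen with earlier results of these data known. RefSeq lengths and gene order (GRCm38.p6) matched 2 of 2 genes by symbol, and no coordinate was converted. Steps were tested on simulated data. Python 3.11.15, numpy 2.4.6, pandas 2.3.3, R 4.3.3 and edgeR 4.0.16 (TMM scaling only) were used. Alternatives were other scalings, lengths, filters, pseudocounts and leaving out each library.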

Additional observations from a re-analysis of the deposited data

How the results depend on the processing

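Of 94 alternatives run, 76 left a value within its spread or kept the direction of the ratio. Another 16 moved a value further and 2 reversed the ratio. For counts, levels per kilobase and percentiles, spread was the SD of the values of the 4 libraries. For the log2 SD and the like-length range it was the SD of the 4 leave-one-out values. The 5 other placements of the Neat1 reads were added after seeing the data. The log2 ratio of Malat1 to Neat1 per kilobase was reversed, to -0.46 with all Neat1 reads on the short model and to -1.02 on its bases outside other loci, because these lengths are shorter. Under the other alternatives it stayed above 0, between 0.96 without length division and 2.93. Levels per kilobase moved with length: Malat1 to 37900.4 on UCSC exons, and the Neat1 row to 12956.5 on UCSC exons, 3495 on bases outside other loci, 3914 up to the Neat1 5′ end, 4104 on bases there outside other loci, 27030.2 on the short model and 39725 on its bases outside other loci. The percentile of level of Malat1 was 99.6 among loci whose mean reached 10 and 99.2 per kilobase, and that of the Neat1 row 99.5 with loci at 0, 99.0 at a mean of 10 and 93.8 per kilobase. Leaving out 1 library gave a log2 SD of 0.32 to 0.47 for Malat1 and 0.086 to 0.17 for Neat1, and a range after subtraction of like-length medians of 0.51 to 0.78 and 0.085 to 0.16. Left-out libraries moved the mean counts to between 148629 and 178396 for Malat1 and between 78707 and 84489 for Neat1. TMM and equal-total scaling moved neither the mean count, the log2 SD nor the like-length range of Malat1 and the Neat1 row beyond their spread, nor did the median of ratios the mean count and SD. No paired analysis was possible because the 4 libraries form a single group. Depth limits neither gene, while the plus-strand locus rests on 500 to 740 reads, where counting error is 4.06%.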
